A study of Ovis aries with 15 samples.

Results

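The 10 genes described here encode the superoxide dismutases (SOD1, SOD2 and SOD3), catalase (CAT) and the peroxiredoxins (PRDX1 to PRDX6). They were picked by gene name, with earlier results of these data known, from the 25592 genes with deposited values in 15 kidney RNA-seq libraries of sheep, and each of the 10 was found once. The animals were male Dorper × Small-tailed Han sheep of 4 months, and each group of 6 sheep gave 5 libraries. The CON group had no addition to its feed. The AFB1 group was fed aflatoxin B1, a mold toxin, at 500 µg/kg DM (dry matter). The AFB1_CUR group was fed that AFB1 dose plus CUR (curcumin) at 800 mg/kg DM. Kidneys were taken after 21 d of feeding, and the comparisons ask whether transcripts of these antioxidant enzymes differed with AFB1 and whether CUR changed that.

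Superoxide dismutases turn superoxide into oxygen and hydrogen peroxide. SOD1 is the copper and zinc enzyme of the cytosol, SOD2 the manganese enzyme of the mitochondrial matrix, and SOD3 the secreted form, which binds to the extracellular matrix. Hydrogen peroxide is then broken down by catalase, a heme enzyme of the peroxisome, and by peroxiredoxins, which carry a reactive cysteine and are mostly recycled by thioredoxin. The proximal tubule of the kidney is rich in mitochondria and peroxisomes, which are among the places where hydrogen peroxide forms.

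The library labelled AFB1 replicate 1 stood apart from the others. Its score for 20 hepatocyte genes, as the mean log2(FPKM + 1) of the genes (FPKM, fragments scaled to gene length and library depth), was 10.42, and it was 1.28 to 2.68 in the other 14 libraries. Its proximal tubule score was 0.79, against 6.32 to 8.11, and its loop and collecting duct score was 0.78, against 5.84 to 6.77, so the markers of the labelled tissue were near 0 in it. It is therefore shown apart, the main results rest on 14 libraries, and values with all 15 are given beside them. AFB1 replicate 2 and AFB1_CUR replicate 2 had leukocyte scores of 3.31 and 3.77, where the rest of the 14 libraries had 1.14 to 2.04, and adrenal cortex scores of 0.97 and 1.66. Total counts were 50255295 to 68747047 per library.

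The 10 genes lie on 9 chromosomes of the sheep assembly ARS-UI_Ramb_v3.0, whose gene table gives each of them the same start and end as the deposited annotation. SOD1 lies at chr1:124519639-124528314 on the minus strand and SOD2 at chr8:83703254-83713388 on the minus strand. CAT lies at chr15:63787893-63824600 on the plus strand. The cytosolic peroxiredoxins PRDX1 (chr1:20135449-20145938, minus), PRDX2 (chr5:11032406-11035431, plus) and PRDX6 (chr12:54279374-54290241, plus) are on separate chromosomes. The same holds for the mitochondrial PRDX3 (chr22:38860184-38869268, minus), for PRDX5 (chr21:39063670-39066644, plus), which is found in mitochondria, peroxisomes and cytosol, and for PRDX4 (chrX:22100189-22111377, plus), the peroxiredoxin of the endoplasmic reticulum. SOD3 was listed at chr6:44891199-44983094 on the plus strand with 13 transcripts. The length behind its FPKM, read from the ratio of count to FPKM, was 24573 bases, 26.5 times that of SOD1. This stretch overlaps CCDC149, so the level of SOD3 per length is uncertain, and reads of the 2 genes may be mixed. The length behind CAT was 8469 bases, 9.14 times that of SOD1, and the others had 927 to 1861 bases.

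Per length, SOD1 had the highest FPKM of the 10 genes. Over the 14 libraries the mean FPKM was 330 ± 78.2 (SD, n = 14) for SOD1, 225 ± 42.0 for PRDX6, 178 ± 26.3 for PRDX2 and 148 ± 47.1 for CAT. PRDX1 (119 ± 19.4), SOD2 (118 ± 22.4) and PRDX5 (115 ± 17.5) followed at about the same level, and then PRDX3 (85.1 ± 13.3). PRDX4 (22.6 ± 6.20) and SOD3 (3.23 ± 0.869) were lowest. This order depends on the lengths behind the FPKM: in CPM, counts scaled to library depth alone, CAT had 637 to 1941 and SOD1 222 to 458, CAT being above SOD1 in 14 of 14 libraries, and SOD3 had 51.8 to 118 and PRDX4 17.5 to 40.7, SOD3 being above PRDX4 in 14 of 14. In the CON group SOD1 ranked 140 among 13162 genes by mean FPKM, within the top 1.06%, and 8 of the 10 genes were within the top 4.40%. PRDX4 ranked 2530 and SOD3 ranked 9709.

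Of the 9 pairs of neighbours in this order, 5 were separated within libraries by a two-sided exact permutation test that flips the sign of each library's log2 ratio, with Benjamini-Hochberg adjustment over the 9. SOD1 was above PRDX6 in 14 of 14 libraries (mean log2 ratio 0.54, adjusted p = 0.000366), and PRDX3 above PRDX4 in 14 of 14. PRDX4 was above SOD3 in 14 of 14 by FPKM, a separation that rests on the uncertain length of SOD3. PRDX6 was above PRDX2 (0.32, higher in 12 of 14, adjusted p = 0.0143) and PRDX5 above PRDX3 (0.44, higher in 12 of 14, adjusted p = 0.00165) by the same exact test. PRDX2 and CAT (exact adjusted p = 0.0829), CAT and PRDX1 (exact adjusted p = 0.0667), PRDX1 and SOD2, and SOD2 and PRDX5 (mean log2 ratio 0.02 for both pairs) were not separated by FPKM. In CPM, CAT was above PRDX2 and above PRDX1, and SOD2 above PRDX5, in 14 of 14 libraries. Of the 5 separated pairs, 3 turned in CPM: PRDX6 was then above SOD1 in 13 of 14 libraries, PRDX3 above PRDX5 in 13 of 14 and SOD3 above PRDX4 in 14 of 14. With all 15 libraries 3 of the 9 pairs were separated.

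**Figure D1:**
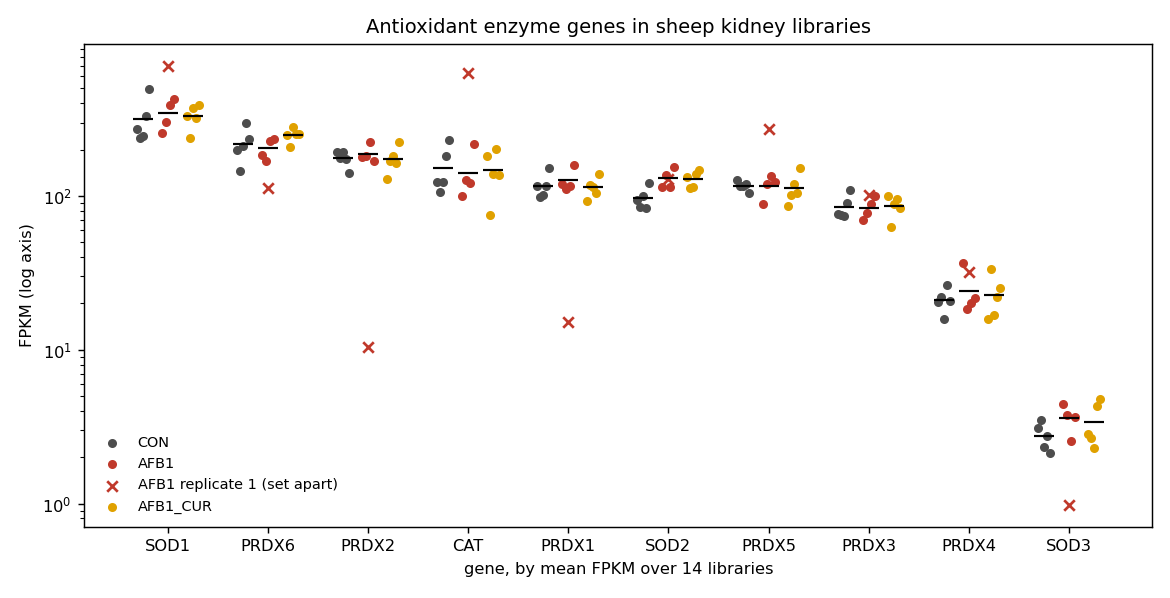
FPKM on a log axis of each of the 10 genes in every library, by group. Each point is a library, the black line is the group mean without AFB1 replicate 1, and the cross is AFB1 replicate 1. The ranges of the 3 groups overlap for every gene, SOD1 is highest per length with a mean of 330, and the cross for PRDX2 is at 10.4 where the other libraries have 129 to 226.

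SOD2, the mitochondrial enzyme, had a higher mean in AFB1 and in AFB1_CUR than in CON. In the CON libraries, replicates 1 to 5, the FPKM of SOD2 was 93.6, 85.2, 100, 83.7 and 121. In the AFB1 libraries, replicates 2 to 5, it was 115, 136, 114 and 155. In the AFB1_CUR libraries it was 132, 113, 114, 140 and 148. The AFB1 and AFB1_CUR libraries were all at 113 or above and 4 of the 5 CON libraries were at 100 or below, so the groups overlapped through CON replicate 5 alone. For each of the 10 genes the ranges of any pair of groups overlapped, whereas among all 13162 tested genes the ranges were separate for 1.54% between AFB1 and CON, 0.676% between AFB1_CUR and AFB1 and 0.722% between AFB1_CUR and CON. For SOD1 the CON libraries had 272, 239, 246, 333 and 498, the AFB1 libraries 258, 303, 388 and 427, and the AFB1_CUR libraries 333, 238, 374, 322 and 389. The ranges of the SOD1 groups lay over each other, and the lowest and highest of the 14 libraries differed 2.09 times. SOD3 was 2.12 to 3.50 in CON, 2.56 to 4.45 in AFB1 and 2.31 to 4.81 in AFB1_CUR, with counts of 2909 to 7611 per library.

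CAT had the highest coefficient of variation of the 10 genes in each group. Its FPKM was 123, 106, 123, 182 and 231 in CON, 100, 128, 121 and 217 in AFB1, and 182, 75.0, 140, 202 and 137 in AFB1_CUR. That coefficient was 34.1% over the CON libraries, 36.5% over AFB1 and 33.3% over AFB1_CUR, and the next highest were 33.9% (SOD1), 35.0% (PRDX4) and 32.7% (SOD3). Each group held libraries near 100 or below and libraries near 200 or above.

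PRDX1 and PRDX2 are abundant cytosolic peroxiredoxins with 2 active cysteines. PRDX1 was 98.0 to 151 in CON, 111 to 160 in AFB1 and 92.3 to 140 in AFB1_CUR. PRDX2 was 142 to 193, 169 to 226 and 129 to 224 in the same order. PRDX6, which also has phospholipase activity, was 199, 146, 210, 298 and 235 in CON, 185, 169, 229 and 233 in AFB1, and 251, 208, 280, 252 and 254 in AFB1_CUR. All 5 AFB1_CUR libraries were at 208 or above, a level that CON and AFB1 libraries also reached. For the mitochondrial PRDX3, the FPKM was 76.0, 75.4, 73.9, 90.5 and 110 in CON, 70.3, 77.1, 88.5 and 99.5 in AFB1, and 100, 62.8, 88.8, 95.7 and 83.1 in AFB1_CUR. PRDX5 was 104 to 128, 88.1 to 135 and 85.9 to 151, and in CON it had the lowest coefficient of variation of the 10 genes, 7.59%.

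PRDX4, which serves protein folding in the endoplasmic reticulum and is abundant in secretory cells, was 20.5, 22.2, 15.8, 26.4 and 20.9 in CON, 36.7, 18.3, 20.1 and 21.6 in AFB1, and 15.8, 33.5, 16.8, 21.9 and 25.1 in AFB1_CUR. The values of 36.7 and 33.5 belong to AFB1 replicate 2 and AFB1_CUR replicate 2, the libraries with the leukocyte scores of 3.31 and 3.77. Without these 2 libraries the mean FPKM of PRDX4 was 21.2 ± 3.79 (SD, n = 5) in CON, 20 ± 1.67 (n = 3) in AFB1 and 19.9 ± 4.38 (n = 4) in AFB1_CUR. The part of leukocytes in these values was not tested, and in bulk tissue fewer cells of a type and less RNA per cell cannot be told apart.

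Summed by family, the superoxide dismutases had a mean FPKM of 417 ± 119 (SD, n = 5) in CON, 478 ± 88.6 (n = 4) in AFB1 and 464 ± 68.4 (n = 5) in AFB1_CUR. The peroxiredoxins summed to 733 ± 69.6, 744 ± 78.1 and 758 ± 82.5 in the same groups. For both families the means of the groups differed by less than their SDs. The mitochondrial SOD2 and PRDX3 together had 182 ± 27.9, 214 ± 29.5 and 215 ± 25.6.

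Between AFB1 and CON, none of the 10 genes was called differentially expressed. Genes were called where edgeR's quasi-likelihood test gave p under 0.05 before adjustment together with a change of more than 1.5-fold, the screening conditions of the study, and 1.76% of the 13162 tested genes were called. The estimates were higher in AFB1 for 6 genes and lower for 3, and that of PRDX5 was 0.00, with a median log2 fold change of 0.11 over the 10 and 0.02 over all tested genes. SOD2 alone had an unadjusted p under 0.05, which 5.04% of all tested genes had. Its mean FPKM was 130 ± 19.6 (n = 4) in AFB1 and 96.8 ± 15.2 (n = 5) in CON, a 1.35-fold difference (95% interval 1.05 to 1.72) with a log2 fold change of 0.43 (SE 0.17, edgeR adjusted p = 0.957). The difference did not pass adjustment over all genes. Over 24 alternatives the log2 fold change of SOD2 was 0.28 to 0.60 and the adjusted p was at least 0.583. The unadjusted p was above 0.05 without CON replicate 2 or without AFB1 replicate 5, where the log2 fold change was 0.28. With all 15 libraries SOD2 was called (log2 fold change 0.60, edgeR adjusted p = 0.596), where 4.84% of 13193 genes were called.

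The other 9 genes had 95% intervals that spanned 0 between AFB1 and CON. SOD3 had a log2 fold change of 0.39 (interval -0.10 to 0.88), SOD1 of 0.13 (-0.44 to 0.69) and PRDX4 of 0.17 (-0.30 to 0.64). Without AFB1 replicate 2 and AFB1_CUR replicate 2 the estimate for PRDX4 was -0.03 and that for SOD2 was 0.53 (edgeR adjusted p = 0.81). PRDX1, PRDX2, PRDX3 and PRDX5 had log2 fold changes of 0.12, 0.10, -0.01 and 0.00, and PRDX6 had -0.09. The intervals of these 5 peroxiredoxins, from that of PRDX5 (-0.37 to 0.37) to that of PRDX6 (-0.56 to 0.37), lay within a 1.5-fold change either way. CAT had -0.10 with the widest interval of the 10, -0.86 to 0.67, and its estimate became 1.06 (edgeR adjusted p = 0.647) when AFB1 replicate 1, with a CAT FPKM of 632, was included. In the fit of all 15 libraries the log2 fold changes were 0.67 for SOD1, 0.22 for SOD3, -0.13 for PRDX1, -0.19 for PRDX2, 0.24 for PRDX3, 0.48 for PRDX4, 0.64 for PRDX5 and -0.12 for PRDX6, none of them called.

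Between AFB1_CUR and AFB1, none of the 10 genes was called, against 0.935% of the 13162 genes, and none had an unadjusted p under 0.05, which 2.30% of all tested genes had. The estimates were lower in AFB1_CUR for 9 genes and higher for PRDX6, with a median log2 fold change of -0.13 over the 10 and 0.00 over all tested genes. With limma on log2(FPKM + 1) the median over all genes was 0.06, and 7 of the 10 were lower and 3 higher, and with sample quality weights 5 were lower and 5 higher. The smallest p was that of PRDX1, with a log2 fold change of -0.24 (interval -0.62 to 0.13, edgeR adjusted p = 1). PRDX2 had -0.19 (-0.52 to 0.14), SOD2 had -0.08 (-0.44 to 0.28) and PRDX6 had 0.22 (-0.25 to 0.69). CAT had -0.01 (-0.78 to 0.76) and SOD1 had -0.13 (-0.69 to 0.43). SOD3 had -0.15 (-0.64 to 0.34) and PRDX4 had -0.17 (-0.64 to 0.30). The intervals of CAT, SOD1, SOD3, PRDX4, PRDX1 and PRDX6 reached past a 1.5-fold change. PRDX3 had -0.03 (-0.46 to 0.41) and PRDX5 had -0.13 (-0.50 to 0.24). With all 15 libraries CAT had -1.16 and PRDX5 had -0.77 (edgeR adjusted p = 0.785 for both), SOD1 had -0.67, PRDX4 had -0.47, PRDX3 had -0.28 and SOD2 had -0.24, and SOD3, PRDX1, PRDX2 and PRDX6 had 0.02, 0.02, 0.10 and 0.25, none of them called.

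Between AFB1_CUR and CON, which shares the CON libraries with the first comparison, none of the 10 genes was called, against 1.63% of the 13162 genes. SOD2 was again the gene with the smallest p and alone had an unadjusted p under 0.05, with a mean FPKM of 129 ± 15.5 (n = 5) in AFB1_CUR and 96.8 in CON, a 1.27-fold difference (1.01 to 1.61) and a log2 fold change of 0.35 (SE 0.16, edgeR adjusted p = 0.823). Over 24 alternatives the log2 fold change of SOD2 was 0.29 to 0.45. SOD2 kept an unadjusted p under 0.05 in 14 of the 24, and did not keep it with all 15 libraries, where the log2 fold change was 0.36 (edgeR adjusted p = 1) and 0.993% of all genes were called. The share of all tested genes with an unadjusted p under 0.05 was 5.49%. The estimates of the other 9 genes lay between -0.13 and 0.23, and their median with SOD2 included was -0.02, as against -0.00 over all tested genes. Each of the 10 estimates, as rounded, moved by at most 0.01 with all 15 libraries.

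**Figure D2:**
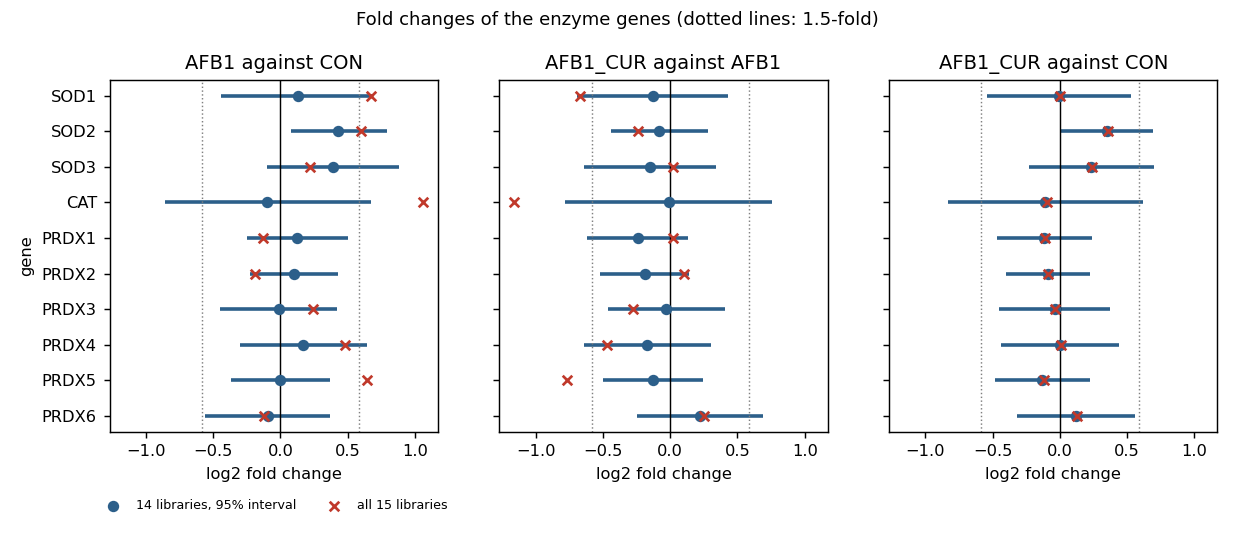
Log2 fold changes of the 10 genes in the 3 comparisons. Points are edgeR estimates over 14 libraries with their 95% intervals, crosses are the estimates with all 15 libraries, and dotted lines mark a 1.5-fold change. SOD2 has intervals above 0 against CON (0.08 to 0.79 and 0.01 to 0.69), and CAT moves from -0.10 to 1.06 between AFB1 and CON when AFB1 replicate 1 is included.

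In AFB1 replicate 1, a single library with no test, 7 of the 10 genes lay outside the range of the other 14 libraries, where 71.2% of all tested genes did. CAT at 632 was 4.76 times the median of the others, PRDX5 at 274 was 2.32 times and SOD1 at 701 was 2.14 times. PRDX2 at 10.4 was 17.1 times below the median, PRDX1 at 15.1 was 7.74 times below, SOD3 at 0.981 was 3.01 times below and PRDX6 at 112 was 2.06 times below. SOD2 at 129, PRDX3 at 102 and PRDX4 at 32.0 lay inside. CAT made up 31.5% of the summed FPKM of the 10 genes in this library and 10.8% ± 2.46 (SD, n = 14) in the others, whereas PRDX2 made up 0.516% and 13.5% ± 2.58. These values stand beside the hepatocyte score of 10.42 in that library, and the part of liver RNA in them was not tested.

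Several of the genes varied together across the 14 libraries. Of 45 pairs, 27 had a positive Pearson r on log2(FPKM + 1), and 4 had an adjusted permutation p under 0.05. On log2 CPM 8 pairs passed, the same 4 with SOD1 and PRDX1 (r = 0.77), SOD1 and PRDX6 (0.71), CAT and PRDX6 (0.71) and PRDX3 and PRDX6 (0.72) added. CAT and PRDX3 had the highest r of the 45 pairs, 0.94 (Spearman's rho 0.93, permutation p = 1e-05 for both, the smallest that 100000 permutations can give, adjusted p = 0.00045), and r was 0.89 without the 2 libraries farthest from the median of CAT. CAT thus varied together with the mitochondrial peroxiredoxin, and it kept an r of 0.92 to 0.97 as each library was left out. SOD1 and PRDX3 had r = 0.85 (rho 0.82, permutation p = 0.00016 and 0.00058, adjusted p = 0.0036 and 0.013), 0.77 without the 2 farthest libraries. SOD1 and CAT had r = 0.75 (rho 0.76, permutation p = 0.00202 and 0.00241, adjusted p = 0.0227 and 0.0361), 0.61 without the 2 farthest. SOD1 and CAT had an adjusted p under 0.05 in 10 of the 14 fits that each left out a library, with the lowest r of 0.68 without CON replicate 5.

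PRDX2 and PRDX5 formed a pair of their own, with r = 0.79 (rho 0.70, permutation p = 0.00101 and 0.00656, adjusted p = 0.0151 for r and 0.0738 for rho) and r = 0.66 without the 2 farthest libraries. Both had their lowest value of the 14 libraries in AFB1_CUR replicate 1, and r was 0.70 without that library. The pair passed in 12 of the 14 fits that each left out a library, with a largest permutation adjusted p of 0.0781. The r of PRDX2 with CAT was -0.46 and with PRDX3 -0.44, neither passing adjustment. With the group means taken out, the same 4 pairs passed by Pearson r, and by Spearman's rho these 4 passed together with PRDX6 and SOD1 (rho 0.81, adjusted permutation p = 0.00889), CAT (0.71, 0.0369) and PRDX3 (0.71, 0.0369). The permutations of these deviations made no allowance for the means taken out, so their p-values are too small. Without AFB1 replicate 2 and AFB1_CUR replicate 2, CAT with PRDX3 (0.90), SOD1 with PRDX3 (0.81) and PRDX2 with PRDX5 (0.93) passed, SOD1 with PRDX1 (r = 0.76, permutation adjusted p = 0.0417) also passed, and SOD1 with CAT (0.67, permutation adjusted p = 0.148) did not.

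**Figure D3:**
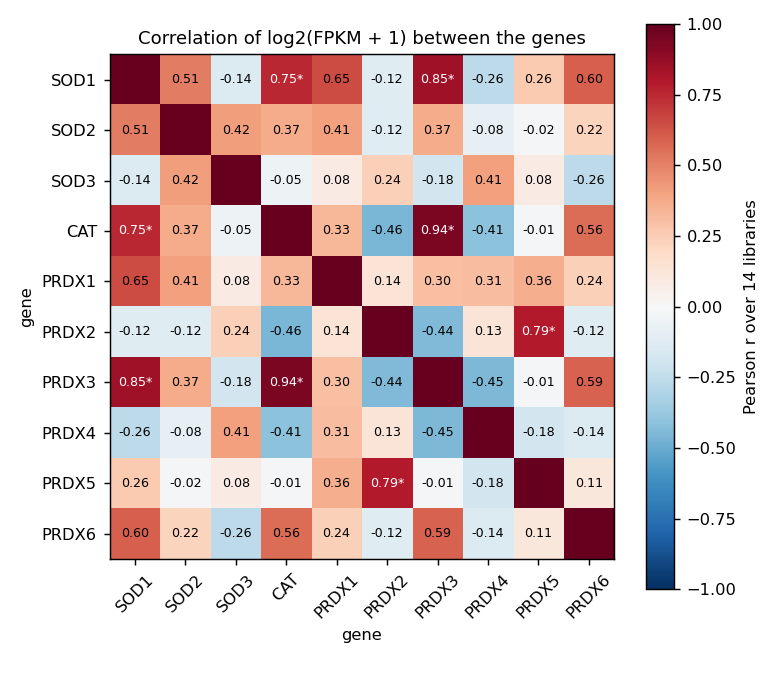
Pearson r of log2(FPKM + 1) between the 10 genes over 14 libraries, from blue (negative) to red (positive). Stars mark the 4 pairs with an adjusted permutation p under 0.05, of which CAT with PRDX3 has r = 0.94, and the diagonal is 1 by definition.

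The proximal tubule score moved with CAT and PRDX3. Of 20 relations between the 10 genes and the proximal tubule score or the loop and collecting duct score, 2 passed. CAT had r = 0.85 with the proximal tubule score (rho 0.83, permutation p = 0.00018 and 0.00042, adjusted p = 0.0036 and 0.0084) and 0.77 without the 2 farthest libraries. PRDX3 had r = 0.72 (rho 0.75, permutation p = 0.00383 and 0.00265, adjusted p = 0.0383 and 0.0265) and 0.55 without the 2 farthest, and it passed in 4 of the 14 fits that each left out a library, with the lowest r of 0.64 without CON replicate 5. CON replicate 5 had the highest proximal tubule score of the 14 libraries, 8.11, and the highest CAT (231) and PRDX3 (110). The scores ranged from 6.97 to 8.11 in CON, 6.32 to 8.04 in AFB1 and 6.51 to 7.76 in AFB1_CUR. SOD2 had r = 0.25 with the proximal tubule score (rho 0.38, permutation p = 0.393 and 0.188, adjusted p = 0.701 and 0.341). With the group means taken out, r of SOD2 was 0.69 (rho 0.56, permutation p = 0.00692 and 0.0414, adjusted p = 0.0461 and 0.166) and 0.44 without the 2 farthest libraries. These permutations made no allowance for the group means taken out, so their p-values are too small. The adjusted p for r was close to 0.05, so no pass within groups is read from it. Leukocyte scores were 1.14 to 2.04 in CON, 1.51 to 3.31 in AFB1 and 1.70 to 3.77 in AFB1_CUR. The 2 libraries with the highest of these, AFB1 replicate 2 and AFB1_CUR replicate 2, had a SOD2 FPKM of 115 and 113. These values were at or near the lowest of their groups. Without these libraries the SOD2 estimates against CON were 0.53 for AFB1 and 0.44 for AFB1_CUR. The part of leukocytes in the SOD2 values was not tested.

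**Figure D4:**
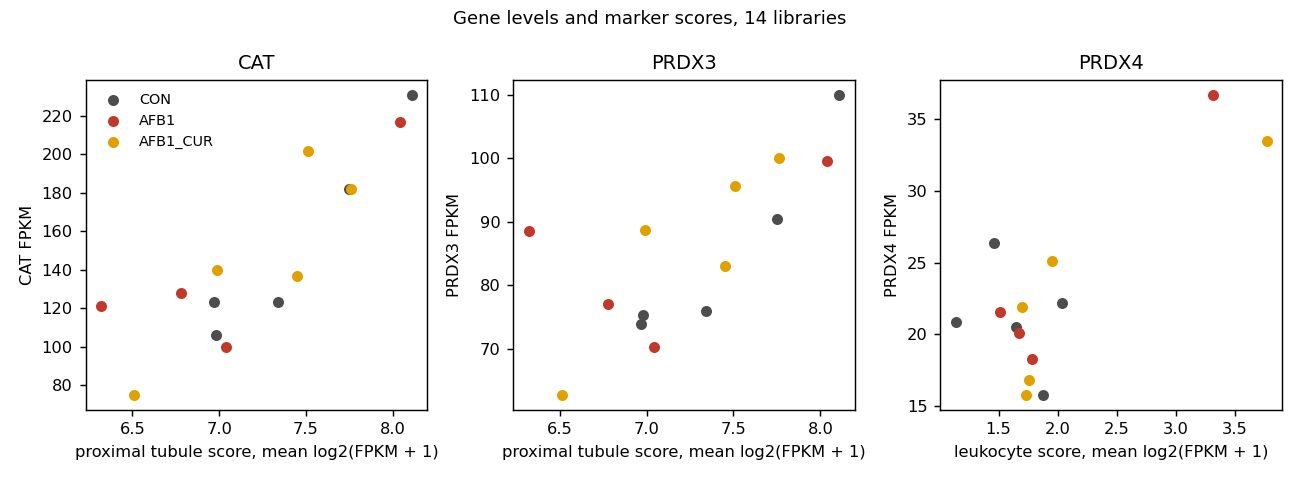
FPKM of CAT and PRDX3 against the proximal tubule score and of PRDX4 against the leukocyte score, each the mean log2(FPKM + 1) of its marker genes, in 14 libraries colored by group. CAT reaches 231 in the library with the highest proximal tubule score, 8.11, and PRDX4 reaches 36.7 and 33.5 in the 2 libraries with leukocyte scores above 3.

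Each gene had a nearest neighbor, the tested gene outside the set with the highest Pearson r over the 14 libraries among 13152 searched. For CAT it was MMUT (r = 0.97), the mitochondrial methylmalonyl-CoA mutase, and for PRDX3 it was PM20D2 (0.96). For SOD1 it was VDAC1 (0.91), a channel of the outer mitochondrial membrane, for PRDX5 it was MICOS10 (0.95), a subunit of the complex that shapes mitochondrial cristae, and for PRDX6 it was SLC25A20 (0.80), the mitochondrial carnitine and acylcarnitine carrier. SOD2 was nearest to CD59 (0.91), an inhibitor of complement on the cell surface, SOD3 to USP4 (0.84), PRDX1 to COPS5 (0.90), PRDX2 to TMEM160 (0.94) and PRDX4 to the splicing factor SF3A3 (0.93). These are the highest of many values over libraries that share depth and tissue makeup, and they are given as a description.

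The genes that recycle, load or regulate these enzymes were also not called in any of the 3 comparisons, by edgeR or by DESeq2. Of the 67 tested genes of the 6 lists, 5 had an unadjusted edgeR p under 0.05 between AFB1 and CON (SRXN1, PDIA4, NFE2L2, FOXO4 and MAFK), 0 between AFB1_CUR and AFB1 and 4 between AFB1_CUR and CON (CCS, FOXO4, MAFK and TFAM). Over all tested genes the shares with such a p were 5.04%, 2.30% and 5.49%, and the shares called were 1.76%, 0.935% and 1.63%, so these counts are no result about the lists. The thioredoxin system had 12 tested genes. In AFB1 against CON 6 of the 12 were higher, and the smallest p was that of SRXN1, sulfiredoxin, which repairs overoxidized peroxiredoxins. SRXN1 had a mean FPKM of 16.5 ± 1.92 (n = 4) in AFB1 and 13.4 ± 1.65 (n = 5) in CON, with ranges of 13.9 to 18.4 and 11.0 to 15.6 that overlapped (log2 fold change 0.31, SE 0.14, edgeR adjusted p = 0.957). In AFB1_CUR it was 14.8 ± 2.26, between the other means, with a log2 fold change of -0.25 against AFB1 (SE 0.14, edgeR adjusted p = 1). Against CON, AFB1_CUR had the smallest p in SESN3, a sestrin, with a log2 fold change of 0.39 (edgeR adjusted p = 0.823).

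Of the 5 tested genes for copper supply and SOD loading, CCS, the chaperone that gives SOD1 its copper, had the smallest p against CON. Its mean FPKM was 31.8 in CON and 28 in both other groups (log2 fold change -0.18 in AFB1, edgeR adjusted p = 0.963, and -0.25 in AFB1_CUR, edgeR adjusted p = 0.823). Between AFB1_CUR and AFB1 it was the copper chaperone ATOX1, with a log2 fold change of -0.23 (edgeR adjusted p = 1). Among the 4 tested metal transporters the smallest p was that of SLC39A8 in AFB1 against CON (log2 fold change -0.11, edgeR adjusted p = 0.984) and of the mitochondrial iron carrier SLC25A28 in the other comparisons (-0.21 against AFB1 and -0.22 against CON).

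Among 23 tested genes of the list drawn up for makers of superoxide or hydrogen peroxide, not all of which need be main sources, NCF4, a subunit of the phagocyte oxidase, had the smallest p between AFB1 and CON (log2 fold change 0.70, SE 0.36, edgeR adjusted p = 0.957), with a mean FPKM of 3.32 ± 1.34 (n = 4) and 2.02 ± 0.798 (n = 5). It passed both screening conditions in 3 of the 14 fits that each left out a library. SUOX, sulfite oxidase, had it between AFB1_CUR and AFB1 (-0.51, edgeR adjusted p = 1), and ACOX3, a peroxisomal acyl-CoA oxidase, between AFB1_CUR and CON (-0.42, edgeR adjusted p = 0.823). HAO2, a peroxisomal oxidase that makes hydrogen peroxide, had a mean FPKM of 444 in CON, 400 in AFB1 and 427 in AFB1_CUR, which was more per length than SOD1 had.

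For the 7 peroxisomal import genes listed beside catalase, the median log2 fold changes were -0.01, -0.06 and -0.00 in the 3 comparisons, and the smallest p in both comparisons of AFB1_CUR belonged to PEX14 (log2 fold change -0.15 in both). Among 16 regulators of these genes MAFK, a small MAF protein that pairs with NRF2, had the smallest p against CON, with log2 fold changes of -0.36 in AFB1 (SE 0.12, edgeR adjusted p = 0.957) and -0.27 in AFB1_CUR (SE 0.12, edgeR adjusted p = 0.823). ESRRA, a nuclear receptor of mitochondrial genes, had it between AFB1_CUR and AFB1 (-0.24, edgeR adjusted p = 1). NFE2L2, which encodes NRF2, had a mean FPKM of 56.0 in CON, 70.9 in AFB1 and 67.2 in AFB1_CUR. With all 15 libraries ATOX1, SLC25A28 and SUOX were called between AFB1_CUR and AFB1, where 3.98% of all genes were called.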

How the data were processed

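Per the labels and the study's methods, poly(A) RNA of kidney was sequenced as read pairs. The authors trimmed reads with cutadapt 1.9, aligned them with HISAT2 2.2.1 and used StringTie 2.1.6, and deposited counts of reads and FPKM values per gene and library. No source used here gives the counting tool, its strand setting or the build, and 24848 of 24947 genes with a matching symbol (99.6%) had the same start and end as in ARS-UI_Ramb_v3.0. Groups follow the sample titles, since the treatment field counts upward within a group, and doses come from the study's methods.

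The 10 genes and the gene lists were chosen with earlier results of these data known. Genes at FPKM 1 or more in 5 or more libraries were tested with edgeR 4.0.16 (R 4.3.3) on the deposited counts, by its quasi-likelihood test with TMM normalization and a shared spread over 14 libraries. Calls needed p under 0.05 before adjustment with more than 1.5-fold change, and Benjamini-Hochberg adjustment ran over all genes tested. limma 3.58.1 on log2(FPKM + 1) and DESeq2 1.42.0 were alternatives. Correlations used 100000 permutations over libraries (SciPy 1.17.1), and the fits were tested on simulated data. Beside the 10 genes and their nearest neighbors, each list's called genes were to be named or, with none called, its gene with the smallest p, and 1 such result is not reported here. HAO2, NFE2L2, PDIA4, FOXO4 and TFAM were named after their values were seen. The depth of at least 50255295 counts gave at least 1048 counts for every one of the 10 genes in the 14 libraries, so counting error is small. What else limits precision was not tested. The study housed the sheep in shared pens. Pens were not modelled, so each library was taken as independent, and the p-values and intervals rest on that.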

Additional observations from a re-analysis of the deposited data

Results flagged for a closer look

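In 4 of 40 groups of values (10 genes in CON, AFB1_CUR, and AFB1 with and without replicate 1), 1 library lay farther from the rest than Dixon's 95% limit, and chance gives about 1 in 20 groups. In 3 of these the library was AFB1 replicate 1: CAT had an FPKM of 632 there and 100 to 217 in the other 4 AFB1 libraries, PRDX2 had 10.4 there and 169 to 226, and PRDX5 had 274 there and 88.1 to 135. The fourth was PRDX1 in AFB1 replicate 5, with an FPKM of 160 where AFB1 replicates 2 to 4 had 111 to 119. Without AFB1 replicate 5, the log2 fold change of PRDX1 between AFB1 and CON was -0.07 in place of 0.12.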

How the results depend on the processing

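Of 720 fold changes of the 10 genes under alternatives, 657 kept their direction and their call, 62 had the other sign and 1, SOD2 between AFB1 and CON with all 15 libraries, became a call (members called 1 in place of 0). A value that rounds to 0.00 was taken to have no sign, so PRDX5 between AFB1 and CON and PRDX4 between AFB1_CUR and CON, at 0.00, were counted as keeping theirs although their values fell on both sides of 0. Apart from all 15 libraries, the values with the other sign were at most 0.34 in size, and the causes were not tested. With all 15 libraries the log2 fold changes between AFB1 and CON were 1.06 for CAT, -0.13 for PRDX1, -0.19 for PRDX2 and 0.24 for PRDX3, and between AFB1_CUR and AFB1 they were 0.02 for SOD3, 0.02 for PRDX1 and 0.10 for PRDX2. With sample quality weights (limma-voom) PRDX3 had 0.01 between AFB1 and CON. With the same weights SOD1, SOD2, CAT and PRDX3 had 0.03, 0.01, 0.25 and 0.10 between AFB1_CUR and AFB1, and SOD1, CAT, PRDX1 and PRDX3 had 0.26, 0.15, 0.01 and 0.10 between AFB1_CUR and CON. With limma on log2(FPKM + 1) and on log2(FPKM + 0.1), CAT and PRDX3 had 0.04 and 0.03 between AFB1_CUR and AFB1, and SOD1 and PRDX3 had 0.10 and 0.02 between AFB1_CUR and CON. Without AFB1 replicate 2 and AFB1_CUR replicate 2, an alternative chosen after seeing the data, CAT, PRDX3 and PRDX4 had 0.08, 0.11 and -0.03 between AFB1 and CON, SOD3 and CAT had 0.02 and 0.01 between AFB1_CUR and AFB1, and SOD1, CAT and PRDX3 had 0.13, 0.09 and 0.09 between AFB1_CUR and CON.

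Leaving out each library in turn gave, between AFB1 and CON, -0.05 to 0.35 for SOD1, -0.45 to 0.10 for CAT, -0.07 to 0.23 for PRDX1, -0.01 to 0.16 for PRDX2, -0.16 to 0.10 for PRDX3, -0.04 to 0.29 for PRDX4, -0.09 to 0.14 for PRDX5 and -0.22 to 0.06 for PRDX6. Between AFB1_CUR and AFB1 it gave -0.27 to 0.04 for SOD1, -0.17 to 0.07 for SOD2, -0.17 to 0.34 for CAT, -0.14 to 0.12 for PRDX3 and -0.29 to 0.05 for PRDX4. Between AFB1_CUR and CON it gave -0.11 to 0.22 for SOD1, -0.26 to 0.09 for CAT, -0.12 to 0.09 for PRDX3, -0.12 to 0.11 for PRDX4 and -0.01 to 0.28 for PRDX6.

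The number of all genes called was 232 between AFB1 and CON, 123 between AFB1_CUR and AFB1 and 214 between AFB1_CUR and CON. It became 639, 525 and 131 with all 15 libraries, 867, 707 and 928 without the filter on low values, and 105, 81 and 80 with limma on log2(FPKM + 1). With sample quality weights it was 336 between AFB1_CUR and AFB1. Without AFB1 replicate 2 and AFB1_CUR replicate 2 it was 207 between AFB1_CUR and AFB1 and 115 between AFB1_CUR and CON. Leaving out each library in turn gave 204 to 454 (454 without AFB1 replicate 5), 119 to 261 (261 without AFB1 replicate 2, 221 without AFB1 replicate 5 and 193 without AFB1_CUR replicate 2) and 115 to 305 (115 without AFB1_CUR replicate 2). The share of called genes that were higher moved from 37.1% to 79.2% between AFB1 and CON with all 15 libraries, from 43.9% to 58.2% between AFB1_CUR and AFB1 on log2(FPKM + 0.1), and from 64.5% to 39.2% between AFB1_CUR and CON with sample quality weights. After adjustment edgeR called 0 genes in each comparison, with 664, 303 and 723 at an unadjusted p under 0.05, and DESeq2 called 17, 3 and 1.

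Of the neighbours in level, 5 pairs were separated with 14 libraries, 3 with 15, and 5 to 6 as each library was left out. The member correlations that passed were 4, and 8 on log2 CPM. The marker score correlations that passed were 2, and 4 with all 15 libraries, 3 with the group means taken out (SOD2 was added), 1 without AFB1 replicate 2 and AFB1_CUR replicate 2, and 1 to 3 as each library was left out, which was added after seeing the data. With the group means taken out the p-values are too small, as those permutations made no allowance for the means.

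The labels number the replicates 1 to 5 in each group, but not every same-numbered pair of libraries deviated together. The correlation of their deviations from the group means was 0.37, 0.38 and 0.55 in the 3 pairs of replicate 2 and 0.37 between CON and AFB1 replicate 5, and it was -0.28 to 0.12 in the other 9 pairs. Differently numbered libraries were not compared in this way, so these values cannot tell whether the numbers pair the samples. The main fits did not use the numbers. With the replicate number as a block, 228, 150 and 282 genes were called in the 3 comparisons in place of 232, 123 and 214, no call among the 10 genes changed, and SOD1 had a log2 fold change of 0.03 between AFB1_CUR and CON in place of -0.01. Counting error is small beside the spread between libraries for all 10 genes, and what makes up that spread was not tested.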
